A study of Mus musculus with 43 samples.

Results

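Nicotinic acetylcholine receptors and the small Ly6 family proteins that act on them were followed in neurons of the frontal cortex of mice kept in environmental enrichment or in standard housing. The 9 genes were given by name, and the set was chosen by its link to Lypd1, whose counts in male RNA were already known to differ with housing. Member values in male RNA are therefore a description and carry no p. They are 5 Ly6 family genes (Lypd1, Lypd6, Lynx1, Ly6h and Ly6e) and 4 receptor subunit genes (Chrna4, Chrna5, Chrna7 and Chrnb2), out of 53379 gene IDs in the RNA tables. Open-chromatin regions that overlapped one of the gene spans or lay within 1 kb of a gene start numbered 36 of 165184 in the female table and 38 of 192919 in the male table.

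Enriched mice (EE) lived in bigger cages with a running wheel, a tube, additional nesting material and toys swapped at intervals of a few days, and mice in standard housing (SH) did not. All were Swiss Webster mice weaned at postnatal day 25 and sampled at 2 months of age, with no transgene or allele in the labels. Fixed frontal cortex nuclei were sorted for the neuronal protein NeuN and gave either nuclear RNA-seq or ATAC-seq, in which a transposase inserts adapters into open chromatin. There were 6 EE and 6 SH libraries of female RNA, 6 EE and 6 SH of male RNA, 3 EE and 3 SH of female ATAC, and 6 EE and 7 SH of male ATAC. Each sex had its own tables, whose libraries carry their own name prefixes in the labels, and the effects of sex and of whatever sets these tables apart cannot be told apart.

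Nicotinic receptors are pentameric cation channels opened by acetylcholine, which cholinergic fibres release in the cortex. The subunits encoded by Chrna4 and Chrnb2 form the main high-affinity receptor of the brain, Chrna5 encodes an accessory subunit that joins it, and Chrna7 encodes a subunit that forms channels by itself. Ly6 family proteins share a three-finger fold with snake toxins that bind the same receptors, and several sit on the neuronal surface by a lipid anchor. In mice, Lynx1 acts as a brake on nicotinic receptors and on plasticity of the adult visual cortex.

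The libraries held 10.6 to 15.4 M (mega) counts for female RNA, 10.4 to 14.6 M for male RNA, 19.1 to 26.3 M for female ATAC and 27.7 to 73.8 M for male ATAC. Markers of neurons in general (Rbfox3, which encodes NeuN, Snap25, Syt1 and Meg3) summed to 11372 to 12942 CPM (counts per M counts of the library, with TMM-scaled totals) in female libraries. Markers of cholinergic neurons (Chat, Slc18a3 and Slc5a7) summed to at most 3.55 CPM in any library, and Slc18a3, the vesicular acetylcholine transporter, was at 0 in all. Astrocyte markers were detected in all RNA libraries, and female SH replicate 2 had the highest sum, at 1553 CPM against 957 to 1229 CPM in the 6 female EE libraries. Slc1a2 and Slc4a4 held most of this sum, at 696 and 343 CPM on average in female EE libraries. Gfap, Aqp4 and Gja1 averaged 2.23, 3.07 and 4.52 CPM there, so the sum by itself is no measure of astrocyte content. Among female libraries these 3 genes were also highest in SH replicate 2, at 7.64, 10.05 and 17.2 CPM. Their highest female EE values were 4.81, 4.38 and 6.99 CPM. SH replicate 2 had the highest oligodendrocyte, microglial and vascular marker sums too, at 364, 79.5 and 65.0 CPM. The highest female EE sums were 247, 52.5 and 39.2 CPM. In these bulk samples fewer cells of a type and less RNA per cell cannot be told apart.

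All 9 genes passed the low-count filter in both RNA tables. Their levels were compared per kb of gene span, since the counts cover introns and exons. The spans run from 4.86 kb for Ly6e and 5.2 kb for Lynx1 to 127 kb for Lypd6. The part of span length in the order of the genes was not tested. Lynx1 was highest, at 3.85 ± 0.52 CPM per kb in female and 4.11 ± 0.42 in male libraries (SD, n = 12 each, both housings). Ly6e, known in mice as the receptor of a placental fusion protein, followed at 2.36 ± 0.26 CPM per kb in female and 3.28 ± 0.48 in male libraries. The ranges of these genes were apart in female libraries (lowest Lynx1 library 3.2, highest Ly6e library 2.94 CPM per kb) and overlapped in male libraries (3.52 and 4.36).

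Chrna4 came next, at 0.844 ± 0.124 CPM per kb in female and 1.04 ± 0.12 in male libraries. Ly6h, Chrna7 and Lypd1 lay close below it, between 0.674 and 0.754 CPM per kb in female libraries and between 0.660 and 0.895 in male libraries. Their order differed between the tables, and in both tables the range of each overlapped that of Chrna4 except for Chrna7 in male libraries, whose highest value was 0.762 against a lowest of 0.806 for Chrna4. Chrnb2 averaged 0.486 ± 0.044 CPM per kb in female and 0.529 ± 0.061 in male libraries. Lypd6 and Chrna5 were lowest, at 0.126 ± 0.027 and 0.122 ± 0.022 CPM per kb in female libraries and 0.105 ± 0.017 and 0.142 ± 0.019 in male libraries, with overlapping ranges. Chrnb2 shares 7252 bases with Adar on the opposite strand, and the strand setting of the counting is not given, so its counts may hold Adar reads and are uncertain. Lypd1 shares 6241 bases with Gpr39 on the opposite strand, so its counts may hold Gpr39 reads. Gpr39 itself had 163 counts in total over the female and 284 over the male RNA libraries.

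**Figure D1:**
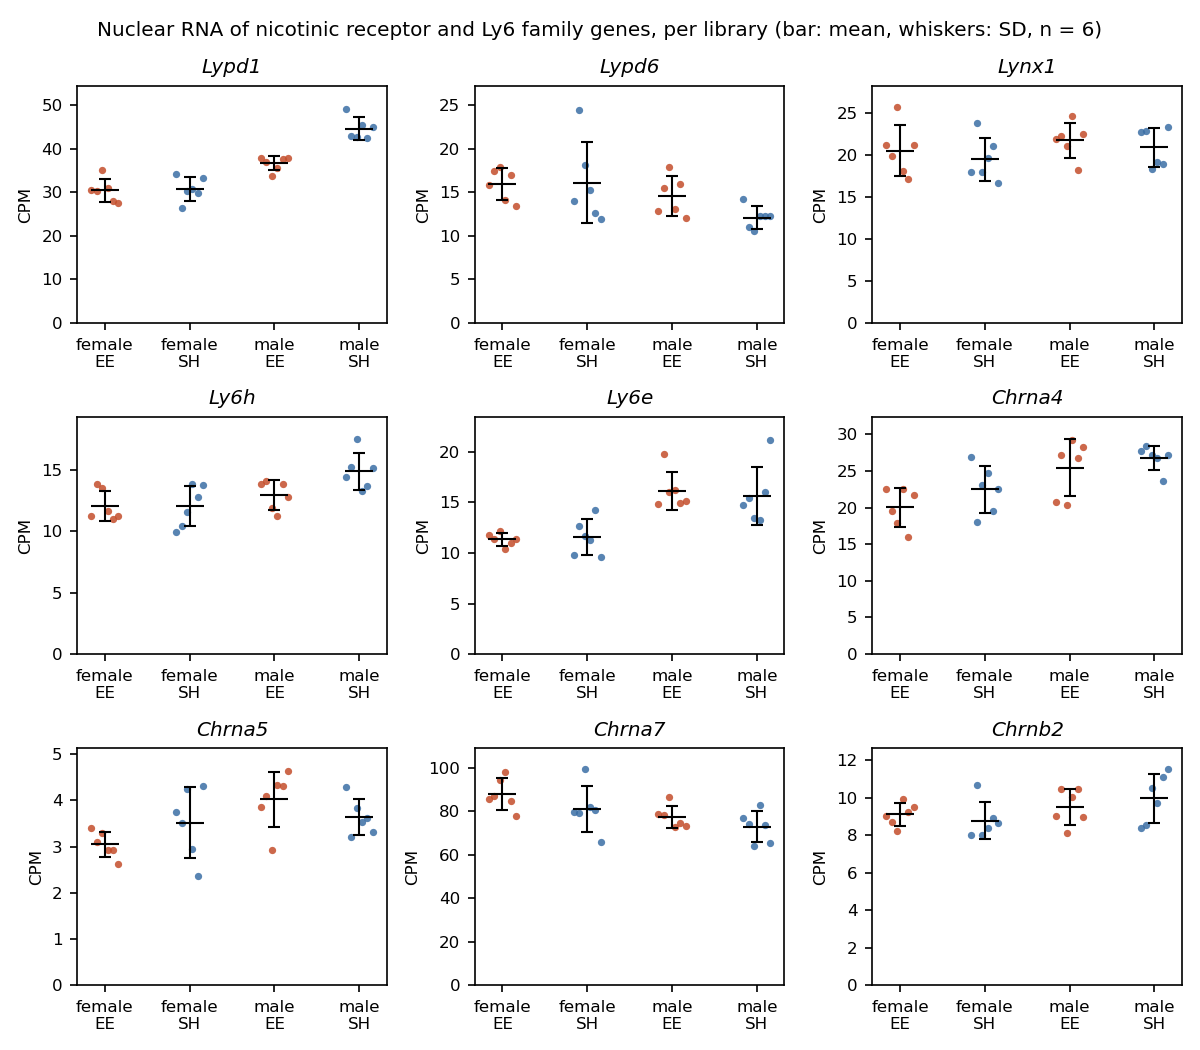
Nuclear RNA of the 9 genes in CPM (vertical axis, from 0) in each library, for female EE, female SH, male EE and male SH. Points are libraries, bars are means and whiskers SD (n = 6 per group). The EE and SH points overlap for every gene except Lypd1 in male libraries, where EE spans 33.9 to 38.0 CPM and SH 42.4 to 49.3 CPM.

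Lypd1, also called Lynx2, encodes a lipid-anchored protein that binds nicotinic receptors (ENSMUSG00000026344, chromosome 1, 125867622 to 125913101, minus strand, mm10). In female EE libraries it was at 30.6, 30.2, 35.2, 31.0, 28.1 and 27.6 CPM, and in female SH libraries at 34.1, 26.3, 30.3, 30.8, 29.8 and 33.3 CPM. The groups overlapped fully, with the highest library in EE and the lowest in SH. The log2 fold change, positive where EE is higher, was -0.02 ± 0.07 (SE), with an edgeR quasi-likelihood adjusted p of 0.971. In male EE libraries Lypd1 was at 37.9, 37.0, 33.9, 35.7, 37.7 and 38.0 CPM, and in male SH libraries at 49.3, 43.1, 42.7, 45.6, 42.4 and 45.0 CPM. All 6 male EE libraries lay below all 6 male SH libraries, with SH replicate 1 the highest.

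The male log2 fold change of Lypd1 was -0.28 ± 0.05. Lypd1 was the only gene among the 9 that was called in male RNA, where 0.0411% of the 14597 tested genes were called (0.00685% as lower in EE). That call is the value the genes were drawn with, and nothing is read from it. It was kept in 4 of 12 fits that left out 1 library, and was lost without EE replicate 2, 3 or 4 or without SH replicate 1, 2, 3, 4 or 6, as well as with limma, with log2 fold changes between -0.29 and -0.25 over those 12 fits. In the same male libraries 8 of 8 astrocyte markers had a positive log2 fold change and 0 were called, and their sum was 901 to 1057 CPM in EE and 819 to 926 CPM in SH. Of oligodendrocyte markers 7 of 7 were positive and 0 were called, with sums of 99.2 to 243 CPM in EE and 112 to 147 CPM in SH. The sum of the 4 general neuron markers was 13299 to 13969 CPM in EE and 13576 to 14753 CPM in SH, and 0 of these markers were called. Of layer 6 and subplate neuron markers 0 of 6 tested were positive. The 7 listed genes summed to 892 to 1083 CPM in EE and 840 to 1220 CPM in SH. Positive were 3 of 7 tested striatal, 3 of 4 upper-layer, 5 of 7 GABAergic and 1 of 3 excitatory neuron markers, and 2 of 4 microglial markers. No marker in these lists was called. With the level of non-neuronal markers as a covariate, the Lypd1 difference was -0.28 ± 0.05. That covariate does not cover neuron subtypes, whose part in the Lypd1 difference was not tested.

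The effect of housing on Lypd1 was 0.26 ± 0.09 higher in female than in male RNA on the log2 scale. This difference uses the male values that drew the gene and is given as a size. In the test of that difference over 15562 genes, 0 of the 9 genes and 0.00643% of all genes were called.

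Lypd6, a relative that in zebrafish also acts in Wnt signalling (ENSMUSG00000050447, chromosome 2, 50066429 to 50193569, plus strand), did not pass in female RNA. It was at 15.9, 17.4, 17.9, 14.1, 17.01 and 13.4 CPM in female EE libraries and at 13.9, 24.5, 18.2, 15.3, 12.7 and 11.9 CPM in female SH libraries (log2 fold change -0.01 ± 0.15, adjusted p = 0.992). The highest value came from SH replicate 2, the library with the highest astrocyte marker sum, and without that library the log2 fold change was 0.15. In male libraries Lypd6 was at 12.9, 15.5, 17.9, 13.1, 15.9 and 12.05 CPM in EE and at 14.2, 11.0, 10.6, 12.2, 12.3 and 12.3 CPM in SH (0.27 ± 0.10). In males 5 of 6 EE libraries lay above the SH median, and the groups overlapped.

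Lynx1 (ENSMUSG00000022594, chromosome 15, 74747852 to 74753046) averaged 20.5 ± 3.00 CPM in female EE and 19.5 ± 2.59 in female SH libraries (0.07 ± 0.10, adjusted p = 0.901). It averaged 21.8 ± 2.102 CPM in male EE and 20.9 ± 2.32 in male SH libraries (0.06 ± 0.08). Ly6h (ENSMUSG00000022577, chromosome 15, 75551268 to 75567255) encodes a protein that lowers the surface level of receptors made of the Chrna7 subunit. It averaged 12.1 ± 1.24 CPM in female EE and 12.04 ± 1.65 in female SH libraries (0.00 ± 0.11, adjusted p = 0.999). In male libraries it was at 13.9, 14.0, 11.9, 11.2, 13.9 and 12.8 CPM in EE and at 14.4, 15.2, 17.5, 13.2, 13.7 and 15.1 CPM in SH (-0.20 ± 0.08). All 6 male EE libraries lay below the SH median, though the groups overlapped. Ly6e (ENSMUSG00000022587, chromosome 15, 74955051 to 74959905) averaged 11.4 ± 0.64 CPM in female EE and 11.6 ± 1.77 in female SH libraries (-0.03 ± 0.10, adjusted p = 0.967), and 16.2 ± 1.88 CPM in male EE and 15.7 ± 2.90 in male SH libraries (0.05 ± 0.10).

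Among the receptor subunits, Chrna4 (ENSMUSG00000027577, chromosome 2, 181018380 to 181043546) was at 22.5, 19.5, 17.9, 22.5, 15.97 and 21.8 CPM in female EE libraries and at 26.9, 18.1, 23.1, 24.8, 19.6 and 22.6 CPM in female SH libraries. All 6 EE libraries lay below the SH median, but the groups overlapped and the difference did not pass (-0.17 ± 0.10, adjusted p = 0.685). In males it averaged 25.4 ± 3.89 CPM in EE and 26.8 ± 1.66 in SH (-0.07 ± 0.08). Chrna5 (ENSMUSG00000035594, chromosome 9, 54980880 to 55007779) was the scarcest member, at 3.04 ± 0.28 CPM in female EE and 3.52 ± 0.76 in female SH libraries (-0.21 ± 0.17, adjusted p = 0.784). All 6 female EE libraries lay below the SH median here too, with overlap, while in males 5 of 6 EE libraries lay above it (4.02 ± 0.60 CPM in EE and 3.63 ± 0.39 in SH, 0.15 ± 0.13).

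Chrna7 (ENSMUSG00000030525, chromosome 7, 63098692 to 63212569) had the highest CPM of the 9 genes before division by length. It averaged 88.0 ± 7.27 CPM in female EE and 81.1 ± 10.7 in female SH libraries (0.12 ± 0.08, adjusted p = 0.712), and 77.4 ± 5.25 CPM in male EE and 72.9 ± 7.07 in male SH libraries (0.09 ± 0.06). Chrnb2 (ENSMUSG00000027950, chromosome 3, 89746195 to 89764632) averaged 9.12 ± 0.60 CPM in female EE and 8.78 ± 1.00 in female SH libraries (0.05 ± 0.10, adjusted p = 0.932). In male libraries it averaged 9.51 ± 0.96 CPM in EE and 9.98 ± 1.32 in SH (-0.07 ± 0.10).

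**Figure D2:**
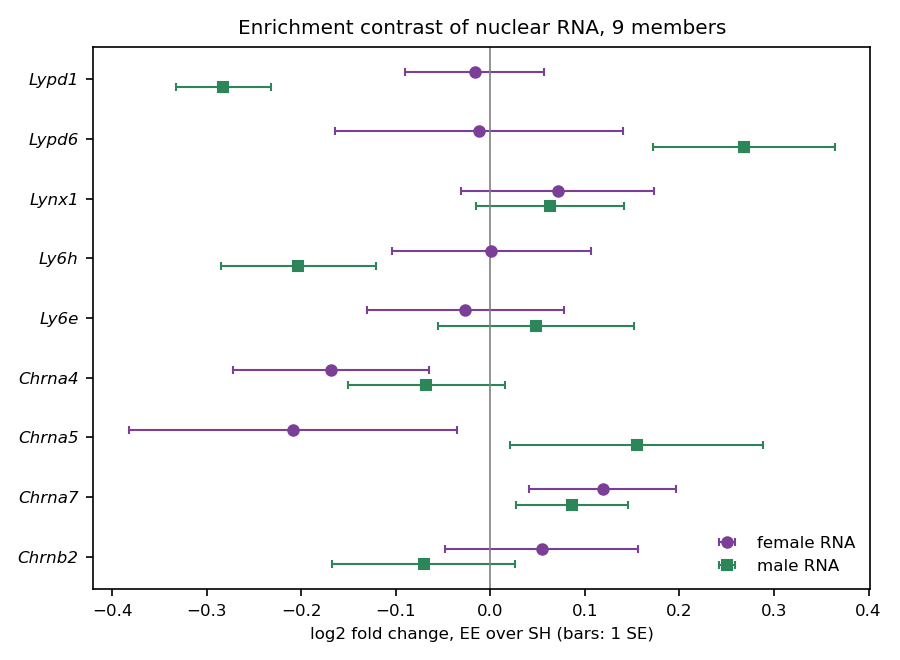
Difference in nuclear RNA as a log2 fold change, EE over SH (horizontal axis, bars 1 SE), for the 9 genes in female RNA (circles) and male RNA (squares). The female values lie between -0.21 and 0.12, and the male values between -0.28 for Lypd1 and 0.27 for Lypd6.

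In female RNA 4 of the 9 genes had a positive and 5 a negative log2 fold change, with a median of -0.01 against 0.00 over all tested genes, of which 50.6% were positive. None of the 9 was called by edgeR (0% of 14587 genes were called) or by DESeq2 or limma. None had an unadjusted p under 0.05, against 8.67% of all tested genes. The groups overlapped for all 9, against 0.548% of all genes whose groups did not. In male RNA 5 were positive and 4 negative (median 0.05, against -0.01 over all genes, of which 47.9% were positive), and the groups did not overlap for 1, against 0.541% of all genes. That 1 gene is Lypd1, whose male difference was known when the set was chosen, so nothing is read from this count. When counts were simulated with the spread of the female RNA table, the test found 54% of 100 genes given a log2 difference of 0.5, so smaller differences may have gone undetected.

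None of the other cholinergic genes that were tested was called in female or male RNA. Of 26 listed genes (other nicotinic subunits, muscarinic receptors, synthesis, transport, breakdown and chaperones), 11 were tested in female RNA, with 6 higher and 0 called. Ache, the enzyme that splits acetylcholine, averaged 14.3 ± 1.04 CPM in female EE and 11.6 ± 0.70 in female SH libraries (log2 fold change 0.29 ± 0.09, adjusted p = 0.223). All 6 EE libraries lay above all 6 SH libraries, as in 0.295% of all tested female genes. Of 9 striatal projection neuron markers 8 also had a positive log2 fold change in female RNA, and 0 were called. Drd2 averaged 26.9 CPM in EE and 18.6 in SH, and Pde10a, lower in EE, 1265 and 1485. The part of tissue makeup in the Ache difference was not tested. The male values of Ache were 13.6 ± 1.81 CPM in EE and 14.1 ± 1.301 in SH (-0.04 ± 0.09, adjusted p = 0.930). Chrm1, a muscarinic receptor, averaged 69.9 ± 3.95 CPM in female EE and 65.3 ± 1.44 in female SH libraries (0.10 ± 0.05, adjusted p = 0.577).

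In male RNA 10 of the cholinergic genes were tested, with 6 higher and 0 called. Chrm3, another muscarinic receptor, averaged 1099 ± 56.4 CPM in male EE and 948 ± 67.6 in male SH libraries (0.21 ± 0.05, adjusted p = 0.145), with 6 of 6 EE libraries above the SH median and overlapping groups. Chrm1 averaged 73.5 ± 3.25 CPM in male EE and 78.3 ± 4.70 in male SH libraries (-0.09 ± 0.05, adjusted p = 0.649), with 5 of 6 EE libraries below the SH median. In females Chrm3 had a log2 fold change of -0.08 ± 0.05 (adjusted p = 0.722). Of 34 further Ly6 and uPAR family genes, 4 were tested in each sex and 0 were called. The leading genes were Cd59b (0.64 ± 0.24, adjusted p = 0.428) and Cd59a (0.26 ± 0.16, adjusted p = 0.678), paralogous inhibitors of complement whose reads may be shared, in females, and Ly6m (0.44 ± 0.19, adjusted p = 0.564) and Cd59a (0.14 ± 0.13, adjusted p = 0.834) in males.

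The genes whose level varied most like Lypd1 over the 24 RNA libraries, after each sex and housing group was centred on its mean, were Chl1, a neural cell adhesion molecule (Pearson r = 0.78), Hddc2 (0.74) and Zfp804b (0.73), out of 11918 genes. Among the other 8 members Chrna5 was most like it (0.48) and Chrnb2 least (-0.43). Libraries share depth and cell makeup across genes, so these values describe the libraries.

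RefSeq promoter windows (GRCm38.p6, the assembly of mm10), 250 bases before to 50 after a start, were held for 6 of the 9 genes, in 9 windows. The 3 Lypd1 windows are shown because its start region is the chromatin beside the RNA difference, Chrna4 because its RefSeq start lies inside the gene span used here, and Chrna7 because it alone matched the EGR motif. Each is written 5′ to 3′ on the minus strand, with motif matches on either strand in capitals.
Lypd1 chr1:125911338-125911637: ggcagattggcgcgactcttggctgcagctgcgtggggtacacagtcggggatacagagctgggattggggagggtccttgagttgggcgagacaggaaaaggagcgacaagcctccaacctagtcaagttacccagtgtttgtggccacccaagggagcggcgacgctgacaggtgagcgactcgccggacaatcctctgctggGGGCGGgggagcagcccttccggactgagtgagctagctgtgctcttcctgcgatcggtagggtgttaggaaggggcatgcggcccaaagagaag
Lypd1 chr1:125912165-125912464: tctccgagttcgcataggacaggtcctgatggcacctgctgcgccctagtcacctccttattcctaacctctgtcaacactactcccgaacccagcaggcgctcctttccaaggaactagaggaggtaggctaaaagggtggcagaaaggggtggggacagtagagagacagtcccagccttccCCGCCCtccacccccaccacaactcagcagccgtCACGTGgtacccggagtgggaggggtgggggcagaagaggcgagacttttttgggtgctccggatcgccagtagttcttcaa
Lypd1 chr1:125912879-125913178: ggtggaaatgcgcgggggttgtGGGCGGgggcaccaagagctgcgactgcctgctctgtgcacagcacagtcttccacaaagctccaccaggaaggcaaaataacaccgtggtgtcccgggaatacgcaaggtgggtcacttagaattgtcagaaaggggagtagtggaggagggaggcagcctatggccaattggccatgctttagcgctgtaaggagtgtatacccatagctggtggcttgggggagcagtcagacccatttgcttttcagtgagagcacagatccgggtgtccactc
Chrna4 chr2:181039128-181039427: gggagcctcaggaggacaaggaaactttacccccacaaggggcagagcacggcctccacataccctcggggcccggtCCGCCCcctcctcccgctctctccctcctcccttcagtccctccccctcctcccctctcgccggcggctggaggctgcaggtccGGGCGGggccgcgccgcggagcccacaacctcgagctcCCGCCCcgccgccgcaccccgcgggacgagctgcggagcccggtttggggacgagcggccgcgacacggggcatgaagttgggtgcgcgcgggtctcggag
Chrna7 chr7:63212477-63212776: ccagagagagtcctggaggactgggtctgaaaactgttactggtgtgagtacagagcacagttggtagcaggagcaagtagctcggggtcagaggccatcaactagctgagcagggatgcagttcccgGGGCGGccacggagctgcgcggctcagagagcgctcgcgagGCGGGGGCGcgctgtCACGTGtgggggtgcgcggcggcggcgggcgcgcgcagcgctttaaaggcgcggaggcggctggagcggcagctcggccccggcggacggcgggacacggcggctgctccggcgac

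The motifs were searched on both strands. The CRE, a site of CREB family factors, is written TGACGTCA and the AP-1 site, bound by Fos and Jun proteins, TGANTCA. The E-box used here is the palindrome CACGTG, and the site of EGR zinc finger factors is GCGNGGGCG. The GC box, bound by Sp factors, is GGGCGG, which can overlap an EGR site, and the TATA motif of core promoters is TATAAA. Each Lypd1 window held 1 GC box, and the middle one also held 1 E-box. Chrna4 held 3 GC boxes, and Chrna7 held 1 GC box, 1 EGR match and 1 E-box. None of the 9 windows held a CRE, AP-1 or TATA match. Over all 32851 windows in the table, 35.7% held a GC box, 7.15% an E-box, 5.55% an EGR match, 13.6% TATA, 7.81% AP-1 and 1.79% a CRE. A match is a stretch of letters and not a measured binding site.

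All genes except Chrna4 had an ATAC region within 1 kb of their start in both tables, and the one with the highest mean CPM is called the start region. The Lypd1 start region (chr1:125911361-125912896) was at 15.7, 16.5 and 14.6 CPM in female EE and at 11.8, 14.0 and 14.1 CPM in female SH libraries. The groups did not overlap, as in 6.46% of all female regions with EE higher, and the difference did not pass (log2 fold change 0.23 ± 0.13, adjusted p = 0.695). In males the wider region there (chr1:125910427-125913516) was at 16.3 to 20.3 CPM in EE, with a median of 17.6, and at 17.1 to 21.0 CPM in SH, with a median of 19.0. The male groups overlapped (-0.09 ± 0.07, adjusted p = 0.999991). The male region covered all 300 bases of each of the 3 Lypd1 windows, and the female start region with a short region next to it covered 277, 300 and 191 bases of them.

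The other start regions did not differ beyond the spread either. In females 4 of 8 start regions had a positive log2 fold change, and the values lay between -0.12 for Chrna7 and 0.23 for Lypd1 (median -0.004). In males 8 of 8 were negative, between -0.10 and -0.03 (median -0.08), with EE and SH overlapping in all. Negative values were also the rule for male regions at any gene start within the same range of CPM, of which 68.6% were negative with a median of -0.03 (65.4% and -0.06 in females). Lynx1 had the highest start region, which covered the whole gene, at 62.4 ± 2.93 CPM in female EE and 60.3 ± 3.39 in female SH libraries (SD, n = 3 each; 0.05 ± 0.09, adjusted p = 0.948). Chrna5 had the lowest, at 1.40 ± 0.36 CPM in female EE and 1.21 ± 0.05 in female SH libraries (0.22 ± 0.34, adjusted p = 0.929). That female region, 196 bases wide, covered 0 bases of either Chrna5 promoter window. The male start region of Chrna5 covered 300 and 288 bases of them, at 5.34 ± 0.72 CPM in EE and 5.42 ± 0.52 in SH.

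**Figure D3:**
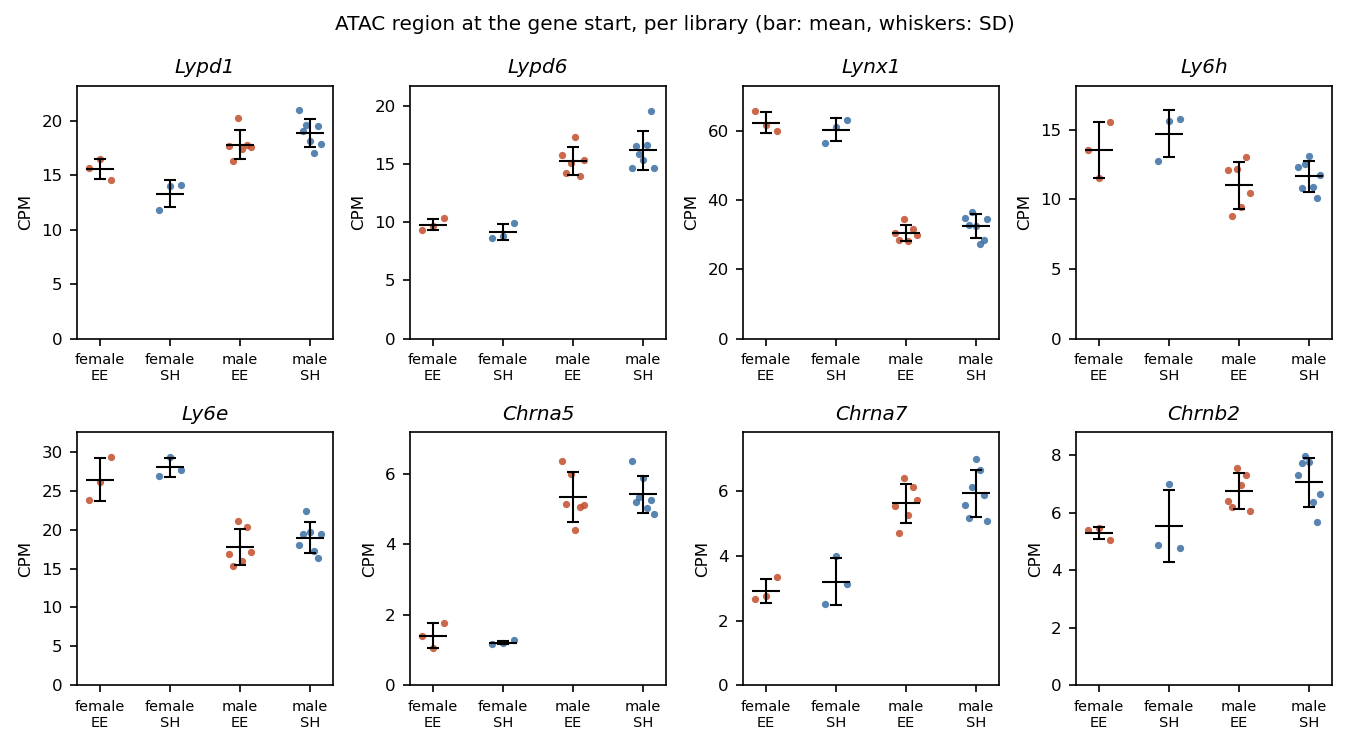
ATAC signal in CPM (vertical axis, from 0) of the start region of 8 genes in each library, for female EE, female SH, male EE and male SH. Points are libraries, bars means and whiskers SD (n = 3, 3, 6 and 7). The female Lypd1 groups do not overlap (14.6 to 16.5 CPM in EE, 11.8 to 14.1 CPM in SH), whereas the male Lypd1 groups do.

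Chrna4 had no region within 1 kb of the start used here. The male region 4.5 kb into its span (chr2:181038222-181039770) covered the whole Chrna4 promoter window printed above, and was at 4.73 ± 0.88 CPM in EE libraries and 5.05 ± 0.78 in SH libraries (-0.10 ± 0.12, adjusted p = 0.999991). The female region there (chr2:181038823-181039115) ended before that window and averaged 1.61 ± 0.36 CPM in EE and 1.63 ± 0.36 in SH (-0.01 ± 0.31, adjusted p = 0.998).

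Over all member regions 0 of 36 were called in female ATAC, where 0.0473% of 164926 regions were called, and 18 were higher and 18 lower (48.3% of all regions were higher). An unadjusted p under 0.05 was reached by 2 of them, against 8.01% of all regions, and 3 did not overlap, all higher in EE, against 6.46% of all regions in that direction. In male ATAC 0 of 38 were called, as were 0% of 192834 regions, and 16 were higher and 22 lower (49.7% of all regions were higher). The groups overlapped for all 38, against 0.123% of all regions whose groups did not. An unadjusted p under 0.05 was reached by 0 of them in males, against 4.54% of all regions. With simulated female ATAC counts the test found 4% of 100 regions given a log2 difference of 0.5 and 55% of 100 given a difference of 1, so most differences of the smaller size would go undetected with 3 libraries against 3. With simulated male ATAC counts it found 36% and 89%.

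Both female regions with an unadjusted p under 0.05 lay inside Lypd6, which had 8 of the 36 female regions. The region 120.5 kb into the gene (chr2:50186762-50186998) was at 2.95, 3.21 and 3.88 CPM in female EE and at 2.63, 1.62 and 0.916 CPM in female SH libraries (0.95 ± 0.27, adjusted p = 0.194). All 3 EE libraries lay above all 3 SH libraries, with EE replicate 1 and SH replicate 1 close together. Without SH replicate 1 the region was called (1.43, adjusted p = 0.0239), and over the 6 fits that left out 1 library the adjusted p ran up to 0.743. The region 68.7 kb into the gene (chr2:50134831-50135393) was at 6.32, 6.12 and 5.39 CPM in female EE and at 4.42, 3.12 and 3.62 CPM in female SH libraries (0.67 ± 0.20, adjusted p = 0.218), again without overlap.

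The male regions at these places were wider (1423 against 236 bases and 1451 against 562 bases) and had log2 fold changes near 0. At 120.2 kb (chr2:50185936-50187359) the male log2 fold change was -0.09 ± 0.31, with 2.80 to 8.48 CPM in EE and 3.04 to 9.71 CPM in SH. At 68.7 kb (chr2:50134449-50135900) it was -0.05 ± 0.11, with 4.69 to 8.69 CPM in EE and 6.16 to 8.23 CPM in SH. Both had an adjusted p of 0.999991, and the difference between the sexes was not tested, since the tables have separate regions.

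**Figure D4:**
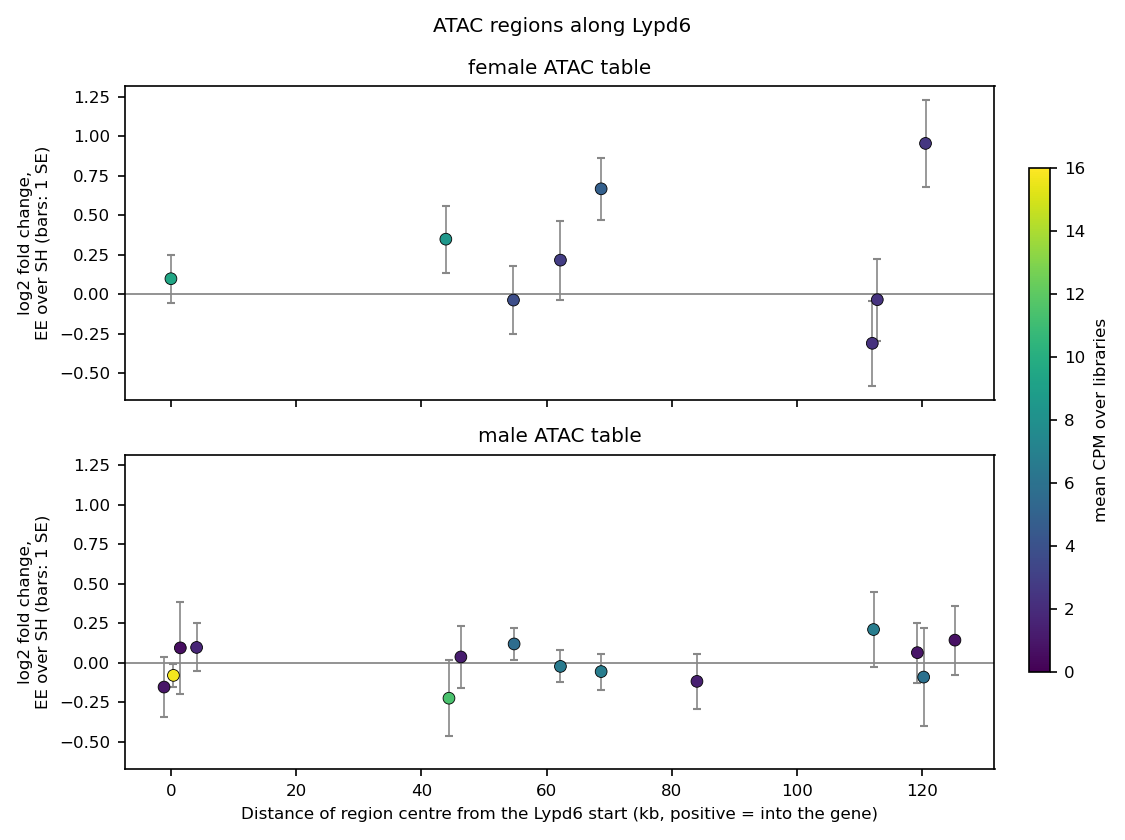
Log2 fold change of each ATAC region along Lypd6, EE over SH (vertical axis, bars 1 SE), against the distance of its centre from the gene start (horizontal axis, kb), in the female table (top) and the male table (bottom). The colour gives the mean CPM. The female regions at 68.7 and 120.5 kb lie highest, at 0.67 and 0.95, and all male regions lie between -0.22 and 0.21.

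Ly6h, with 4 female and 3 male regions, had a negative log2 fold change in all of them. Of all tested regions, 48.3% in females and 49.7% in males were positive. The male Ly6h values were small against their SE, at -0.06 ± 0.16, -0.03 ± 0.15 and -0.09 ± 0.09, and the groups overlapped. The female regions 14.2 kb and 2.9 kb into the gene had the smallest p among member regions lower in EE. The first averaged 1.162 ± 0.568 CPM in EE and 1.75 ± 0.40 in SH (-0.57 ± 0.34, adjusted p = 0.712), and the second averaged 2.58 ± 0.58 CPM in EE and 3.14 ± 0.31 in SH (-0.28 ± 0.24, adjusted p = 0.835). Neither passed, and EE and SH overlapped in both. Without 1 library the log2 fold change of the first ran from -0.79 to -0.22 and that of the second from -0.44 to -0.12. In males the 2 member regions higher in EE with the smallest p were in Chrnb2 at 17.6 kb (1.57 ± 0.20 CPM in EE and 1.27 ± 0.34 in SH, 0.30 ± 0.17) and Chrna4 at 9.2 kb (1.14 ± 0.34 CPM in EE and 0.881 ± 0.246 in SH, 0.32 ± 0.21), both with an adjusted p of 0.999991. Because the Chrnb2 span shares 7252 bases with Adar, a region counted for Chrnb2 may also lie inside Adar. The male regions lower in EE with the smallest p were the start regions of Lynx1 and Lypd1, at -0.09 ± 0.07 each.

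Within Lypd6, 3 male regions varied widely inside both housings, a pattern singled out after its values were seen. At 44.4 kb (chr2:50109743-50111904) the EE libraries were at 14.0, 6.42, 9.48, 10.7, 10.6 and 11.6 CPM and the SH libraries ran from 6.59 to 17.7 CPM, with a median of 11.8. The SD of log2 CPM within housing was 0.45 at 44.4 kb, 0.43 at 112.2 kb and 0.58 at 120.2 kb. The median over 43934 male regions of 5 to 20 CPM was 0.160, and these 3 regions exceeded 99.6%, 99.6% and 99.9% of them. The other Lypd6 regions in that range of CPM were at 0.13 to 0.25, and the female region at 43.9 kb was at 0.43, above 98.9% of female regions.

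The same male libraries were high or low at several of these regions. SH replicates 3, 6 and 7 and EE replicate 1 were the highest 4 of 13 at both 44.4 kb and 120.2 kb, and 3 of the lowest 4 were shared. At 112.2 kb (chr2:50177588-50179721) the order ran the other way in part: 3 of the highest 4 at 44.4 kb were among the lowest 4 there, and EE replicate 2 and SH replicate 1, low at 44.4 and 120.2 kb, were highest, at 10.2 and 10.0 CPM. Both housings held high and low libraries at each of the 3 regions. In females, SH replicates 1, 2 and 3 fell in that order at 43.9 kb (10.8, 6.35 and 5.10 CPM). They did so at 120.5 kb too (2.63, 1.62 and 0.916 CPM), while the order of the female EE libraries differed between these places. The SD of log2 CPM within housing was 0.56 at the female 120.5 kb region.

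**Figure D5:**
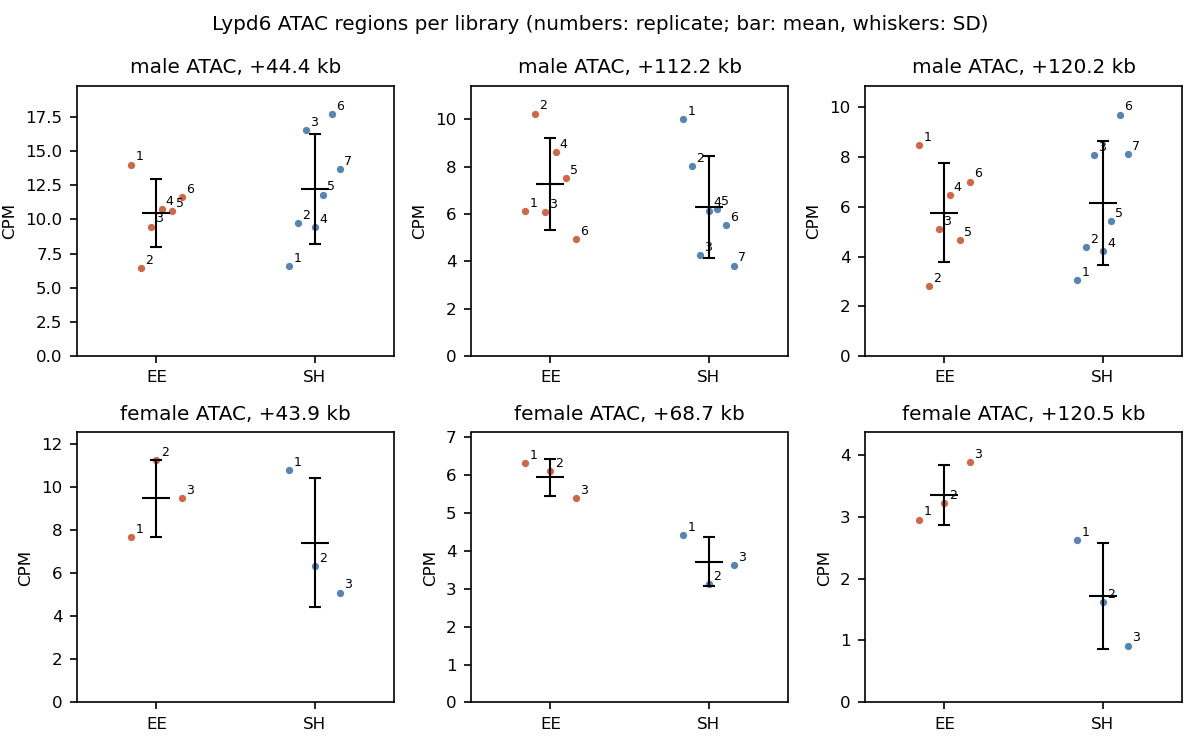
ATAC signal in CPM (vertical axis, from 0) of 6 regions inside Lypd6 in each EE and SH library, numbered by replicate, with bars for the mean and whiskers for the SD (male n = 6 EE and 7 SH, female n = 3 each). In the male panels at 44.4 and 120.2 kb SH replicates 3, 6 and 7 and EE replicate 1 are highest, and in the female panels at 68.7 and 120.5 kb EE lies above SH.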

How the data were processed

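The authors deposited unnormalized counts: reads per Ensembl gene, over the whole gene span, for RNA, and reads per region for ATAC. The submitters' processing notes name the genome build mm10, the aligner STAR (2.5.4), the peak caller MACS2 (2.1.1), the packages DiffBind (3.2.2), DESeq2 (1.16.1) and edgeR, and the utilities SAMtools (1.3.1) and bedtools. The read counter, its strand setting and the merging of regions are not named in the notes or labels (not given in the sources used here), and coordinates stand as in the tables. The male RNA header is 1 name short, so its columns were read by position.

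An edgeR (4.0.16, under R 4.3.3) model per table tested housing by quasi-likelihood F (robust, TMM scaling, filterByExpr), with Benjamini-Hochberg adjustment over the whole table and a threshold of 0.05. SE is the size of the log2 fold change over the square root of F. CPM uses TMM-scaled totals. The sex by housing term was fitted over all 24 RNA libraries. The fits were tested on simulated data with 200 changed features per table. Alternatives were RLE and total count scaling, no filter, DESeq2 1.42.0, limma-voom 3.58.1, a replicate block, a non-neuronal marker covariate, regions inside the span only, and leaving out each library.

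Members, lists and tests were chosen with earlier results of these data known. Named were all members, the 2 genes per list and table and the 2 regions per table and direction with the smallest p, the start regions, and the 3 genes most like Lypd1 (mean log2 CPM of at least 1). Whether replicates come from separate animals is not in the labels, and p-values therefore measure only the spread between these libraries.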

Additional observations from a re-analysis of the deposited data

Results flagged for a closer look

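In groups of 4 to 10 libraries, 6 of 56 groups checked held 1 library far from the others (Dixon's criterion, which chance meets in about 1 of 20 groups). Chrnb2 in female SH replicate 2 stood above its group, at 10.67 CPM, in the library with the highest astrocyte marker sum, and the part of that in the value was not tested. Ly6e was high in male EE replicate 2, at 19.82 CPM, and in male SH replicate 6, at 21.14 CPM. Chrna4 was low in male SH replicate 5, at 23.58 CPM. In male ATAC the Lypd1 start region was high in EE replicate 3, at 20.28 CPM, and the Lypd6 start region in SH replicate 6, at 19.52 CPM.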

How the results depend on the processing

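In female RNA the count of called genes was 0, and 1 with total count scaling, 168 without a filter, 117 with DESeq2, 4 with limma, 103 with the replicate block, 45 with the marker covariate and 0 to 85 without 1 library. The 85 came from leaving out SH replicate 2, the library with the highest astrocyte marker sum. Leaving out any other female RNA library gave at most 13. In male RNA it was 6, and 136 without a filter, 61 with DESeq2, 0 with limma, 10 with the marker covariate and 0 to 11 without 1 library. In female ATAC it was 78, and 122 with DESeq2, 44 with limma, 35 with the replicate block and 22 to 333 without 1 library. In male ATAC it was 0, and 7 with DESeq2, 1 with the replicate block and 0 to 3 without 1 library. For the sex by housing term it was 1, and 0 with total count scaling, 92 without a filter, 91 with DESeq2 and 0 to 39 without 1 library. The cause was not tested. Member genes called in male RNA were 1, and 0 with limma and 0 to 1 without 1 library. Member regions called in female ATAC were 0, and 0 to 1 without 1 library. No member was called in female RNA, male ATAC or the sex by housing term under any setting run.

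The signs of small female RNA differences changed: Lypd1 was at 0.0076 with total count scaling, Lypd6 at 0.0086 with total count scaling, 0.0215 with limma, 0.0140 with the replicate block and 0.0087 with the marker covariate, and Ly6h at -0.0049 with RLE, -0.0055 with DESeq2 and -0.0001 with the replicate block. Without 1 library the log2 fold change ran from -0.0622 to 0.0137 for Lypd1, -0.084 to 0.1489 for Lypd6, -0.0018 to 0.1341 for Lynx1, -0.0501 to 0.0449 for Ly6h and -0.0748 to 0.0438 for Ly6e in female RNA, and from -0.0168 to 0.1521 for Ly6e in male RNA. It ran from -0.274 to 0.0567 for the Chrna7 and -0.1541 to 0.1423 for the Chrnb2 start region in female ATAC, and from -0.0823 to 0.0265 for the Chrna5 start region in male ATAC. Counting the regions inside the gene spans alone left 35 female and 37 male regions. Libraries of the same replicate number were not treated as paired. A table counted as paired only if the deviations of every EE and SH library with the same number correlated above 0.1, which held in none. The numbers are those of the sample titles. In male RNA the numbers in the column headers match EE and SH libraries differently. Neither the check nor the replicate block used those, so pairing by them was not tested. In female RNA all 6 correlations were positive, from 0.036 to 0.306, and 3 were above 0.1. More genes were called there with the replicate block, so this check does not settle whether those libraries are paired. The main female RNA fit takes no account of pairing. By table, the EE library correlated best with the SH library of its number in 3 of 6 numbers in female RNA, 2 of 6 in male RNA, 1 of 3 in female ATAC and 2 of 6 in male ATAC. The replicate block changed no call of a member. Member regions had as few as 7 counts in 1 library in female ATAC and 11 in male ATAC, which limits their precision.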
